A study of Homo sapiens with 4 samples.

Results

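The 9 genes described here encode the subunits that set variant PRC1 complexes apart from canonical PRC1. They were taken as a fixed list of symbols, mapped to the Ensembl identifiers of the count tables. No measured value was used to pick them, but earlier results of these data were known when the list was chosen. KDM2B, BCOR and BCORL1 belong to PRC1.1. L3MBTL2, MGA and E2F6 belong to PRC1.6. AUTS2 belongs to PRC1.3 and PRC1.5, and RYBP and YAF2 are shared. All 9 of 9 genes, of 57820 gene entries counted in the series, passed the filter on low counts (more than 0.5 CPM, reads scaled to a common library size, in at least 2 libraries), as did 15136 genes in all.

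PRC1 places a single ubiquitin on histone H2A through a RING1A or RING1B subunit bound to a PCGF protein. In canonical PRC1 a CBX protein reads methylated histone H3, whereas variant PRC1 carries RYBP or YAF2 in its place and is known for most of the H2A ubiquitylation of a cell. The other variant subunits bring the enzyme to DNA: KDM2B through unmethylated CpG islands, and MGA and E2F6 through sequence motifs at germline genes.

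Transcription was measured by RNA-seq in untreated HAP1 cells, a nearly haploid human line, in 4 libraries. The dKO group (libraries 1 and 2) carried inactivated RING1A and RING1B. The tKO group (libraries 1 and 2) carried inactivated BAP1, the deubiquitinase that removes the same mark, on top of both. By their labels both groups thus lack the catalytic subunits of PRC1, and no cells with intact PRC1 were analysed here. BAP1 and RING1A were disrupted by insertion of a STOP cassette and clones were selected, while RING1B KO cells had been bought as such, so each genotype stands for selected clones. The comparison asks whether BAP1 loss alters transcript levels of the variant subunits in cells made to lack the enzyme that BAP1 opposes.

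Libraries held between 16054590 and 18455410 counts in genes, so that 3 counts, the smallest level taken as detectable, stood for 0.163 to 0.187 CPM (counting error only, since PCR copies are not independent molecules). BAP1 had 2046 and 2010 counts in dKO and 158 and 107 counts in tKO, with a log2 fold change of -3.77 ± 0.19 (SE; limma adjusted p = 0.0065). Of the PRC1 enzymes that the variant subunits serve, RING1 (RING1A) had 12 to 17 counts per library, and RNF2 (RING1B) lay between 68.2 and 86.1 CPM with a log2 fold change of -0.17 ± 0.12 (SE; limma adjusted p = 0.996). Both groups are labelled as RING1A and RING1B KO and no unedited cells were analysed here, so these levels do not check those labels. By western blot, the paper reports that the H2A ubiquitylation placed by PRC1 was absent from cells of both genotypes. The labelled line carried transcripts of BCR (20.6 to 34.0 CPM), ABL1 (22.2 to 63.0 CPM) and VIM (266 to 518 CPM). The lowest value of each was in tKO 1, and the highest of BCR and ABL1 was in tKO 2. Of the blood cell markers, SPI1, ITGAM and CD3E had 0 counts in all libraries and PTPRC had at most 1 count in a library.

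None of the 9 subunit genes was differentially expressed (DE) between tKO and dKO, where DE means a log2 fold change beyond 1 in either direction with an adjusted p-value under 0.05. By the same rule 2 of 15136 tested genes (0.0132%) were DE, BAP1 and SERPINB9. In bulk RNA a change in the cells present and a change in RNA per cell cannot be told apart. None of the 9 had an unadjusted p-value below 0.05 in limma, against 3.55% of all tested genes, and none did with the edgeR quasi-likelihood test or DESeq2. The limma adjusted p-value was 0.996 for each of them. The log2 fold changes lay between -0.21 and 0.24, 5 above and 4 below 0. Their median absolute value was 0.08, beside 0.12 over all tested genes. The 95% intervals of the 9 differences ran from -0.57 to 0.61 on the log2 scale at their widest, so that a fall of the group mean to less than 0.675 times dKO, or a gain to more than 1.52 times dKO, lay outside the interval of every member.

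**Figure D1:**
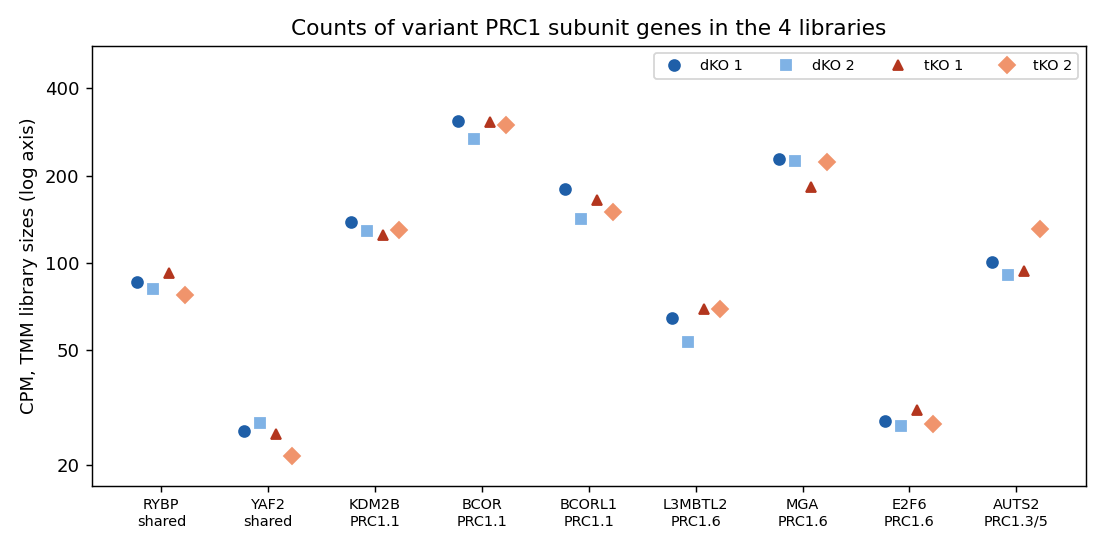
CPM of each subunit gene (log axis) in dKO libraries 1 and 2 (circles, squares) and tKO libraries 1 and 2 (triangles, diamonds), with the complex of each gene under its symbol. For 6 of the 9 genes the tKO points fall within or across the dKO points, BCOR is the highest gene in every library, and YAF2 and E2F6 are the lowest.

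RYBP and YAF2 are related proteins that bind RING1B at the surface used by CBX proteins in canonical PRC1. RYBP (ENSG00000163602.9, GRCh37 chromosome 3, 72420976 to 72495772, minus strand) had 86.2 and 81.1 CPM in dKO and 92.2 and 77.3 CPM in tKO. The tKO values enclosed the dKO values, and the log2 fold change was 0.01 ± 0.12 (SE), with a 95% interval from 0.827 to 1.23 times dKO. YAF2 (ENSG00000015153.10, chromosome 12, 42550906 to 42632151, minus strand) had 26.4 and 27.96 CPM in dKO and 25.7 and 21.5 CPM in tKO. Both tKO libraries were below both dKO libraries, by a log2 fold change of -0.21 ± 0.15 (SE; limma adjusted p = 0.996). The gap between tKO 1 and the lower dKO library was smaller than that between the tKO libraries themselves.

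Among the 2 paralogs, per kb of canonical transcript, YAF2 made up 35.0% and 37.8% of the summed RYBP and YAF2 level in dKO and 32.9% in each tKO library. RYBP was thus the more abundant of the pair in all 4 libraries. The mean share was 36.4% ± 1.96 (SD, n = 2) in dKO and 32.9% ± 0.05 (SD, n = 2) in tKO. With 2 libraries per group an exact permutation test cannot give a two-sided p below 0.333, so no test of the share was made. The share depends on the length assigned to each gene: with all annotated exons merged, in place of the canonical transcript, YAF2 made up between 17.8% and 21.2%.

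PRC1.1 is brought to CpG islands by KDM2B, a histone demethylase with a CXXC zinc finger, and is held together by the corepressor BCOR or its paralog BCORL1. KDM2B (ENSG00000089094.12, chromosome 12, 121866899 to 122018928, minus strand) had 139 and 129 CPM in dKO and 125 and 129 CPM in tKO. Its log2 fold change of -0.07 ± 0.09 (SE) had the narrowest interval of the 9 genes, 0.812 to 1.11 times dKO. BCOR (ENSG00000183337.12, chromosome X, 39909068 to 40036582, minus strand) had 307 and 267 CPM in dKO and 306 and 298 CPM in tKO. Both tKO values lay between the dKO values, with a log2 fold change of 0.08 ± 0.10 (SE). BCORL1 (ENSG00000085185.11, chromosome X, 129115083 to 129192046, plus strand) had 180 and 142 CPM in dKO and 165 and 149 CPM in tKO. Here too the dKO values enclosed those of tKO, and the difference between the dKO libraries, -0.34 on the log2 scale, was larger than the log2 fold change of -0.03 ± 0.13 (SE).

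BCORL1 made up between 31.7% and 35.2% of the summed BCOR and BCORL1 level per kb over the 4 libraries, and the groups overlapped. BCOR was thus the main transcript of the pair in both genotypes. KDM2B made up 61.3% and 64.6% of the summed level with its paralog KDM2A in dKO and 60.7% and 60.4% in tKO. With merged exons the share of KDM2B was between 45.5% and 50.02%, so which of KDM2A and KDM2B is the more abundant was not settled by these counts.

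Reads of KDM2B and of L3MBTL2 were assigned with the help of the strand. RNF34 and the divergent transcript KDM2B-DT overlap exons of KDM2B on the other strand, by 439 and 232 bases in the annotation. KDM2B had 2542, 2337, 2022 and 2092 counts in the order dKO 1, dKO 2, tKO 1 and tKO 2, and 2047, 1910, 1635 and 1697 when strand was ignored and reads in shared exons were dropped. L3MBTL2 shares 1363 bases of exon with its antisense RNA L3MBTL2-AS1 and 117 with CHADL, both at 0 counts in every library. Its counts were 1186, 964, 1127 and 1122 by strand, and 919, 716, 840 and 857 without it. The log2 fold changes of KDM2B and L3MBTL2 without strand were -0.08 and 0.23. The other 7 genes differed by at most 21 counts between the 2 ways of counting.

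PRC1.6 joins the DNA-binding proteins MGA, which pairs with MAX on E-boxes, and E2F6, which pairs with TFDP1 or TFDP2 on E2F motifs, with L3MBTL2, a reader of the MBT family. L3MBTL2 (ENSG00000100395.10, chromosome 22, 41601286 to 41627275, plus strand) had 64.7 and 53.2 CPM in dKO and 69.4 CPM in each tKO library. Both tKO libraries were above both dKO libraries. The log2 fold change of 0.24 ± 0.13 (SE) was the largest in size of the 9 genes, with an interval from 0.958 to 1.46 times dKO and an unadjusted p of 0.100 in limma (adjusted p = 0.996). The dKO libraries differed from each other by 0.28 on the log2 scale, more than the groups did, and the log2 fold change was 0.38 without dKO 1 and 0.10 without dKO 2. MGA (ENSG00000174197.12, chromosome 15, 41913332 to 42065279, plus strand) had 228 and 225 CPM in dKO and 183 and 223 CPM in tKO. Both tKO values were below both dKO values, but tKO 2 was 0.02 below the dKO mean on the log2 scale and tKO 1 was 0.31 below it. The log2 fold change of MGA was -0.17 ± 0.12 (SE; limma adjusted p = 0.996). E2F6 (ENSG00000169016.12, chromosome 2, 11584501 to 11606303, minus strand) had 28.5 and 27.2 CPM in dKO and 30.9 and 27.8 CPM in tKO. The groups overlapped, with a log2 fold change of 0.07 ± 0.13 (SE).

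The 3 tested genes whose pattern over the 4 libraries lay nearest to that of L3MBTL2 were PDCD2L, DIDO1 and AFG3L1P, at Euclidean distances of 0.0177, 0.0220 and 0.0241 between centred log2-CPM values. A pattern over 4 libraries is shared by many genes, and 1215 tested genes lay within 0.2 of L3MBTL2.

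AUTS2, a protein known from neurodevelopmental disorders that links PRC1.3 and PRC1.5 to casein kinase 2, had the widest spread. AUTS2 (ENSG00000158321.11, chromosome 7, 69063282 to 70258492, plus strand) had 101 and 90.7 CPM in dKO and 94.0 and 131 CPM in tKO. The library tKO 1 lay within the dKO values and tKO 2 above them. The log2 fold change was 0.21 ± 0.17 (SE; limma adjusted p = 0.996), and the tKO libraries were 0.48 apart on the log2 scale, more than in 79.6% of tested genes. Without tKO 1 the log2 fold change was 0.45. The spread in that fit came from the dKO pair alone, with the single tKO library assumed to vary alike. Without tKO 2 the log2 fold change of AUTS2 was -0.03. The positive value of AUTS2 thus rested on tKO 2.

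AUTS2 made up 41.8% of the summed level per kb of AUTS2, FBRS and FBRSL1, its relatives, in each dKO library, and 40.5% and 46.9% in tKO. It was the most abundant of the 3 by canonical transcript. With merged exons its share was between 24.3% and 29.8%.

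**Figure D2:**
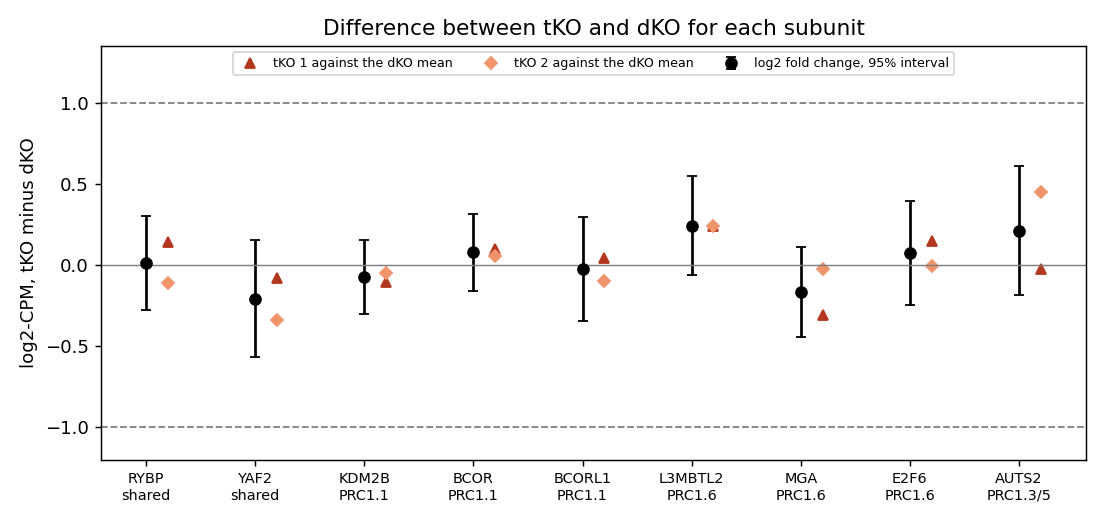
Log2-CPM difference of tKO minus dKO for each subunit gene, with the 95% interval of the limma fit (black) and each tKO library against the dKO mean (triangles, tKO 1; diamonds, tKO 2). All 9 intervals include 0 and stay within the dashed lines at -1 and 1, and the tKO libraries lie furthest apart for AUTS2.

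For 9 of the 9 genes the absolute log2 fold change was smaller than the larger of the differences between libraries of the same genotype, as it was for 12304 of 15136 tested genes. The tKO libraries were further apart than the dKO libraries in 5 of the 9 genes, and in 9153 of 15136 genes overall. BCOR, BCORL1, KDM2B and L3MBTL2 were the 4 genes that differed more within dKO. The groups did not overlap for 3 of the 9 genes, L3MBTL2 (tKO above) and YAF2 and MGA (tKO below), against 31.7% of all tested genes.

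Since genes on a stretch of chromosome 3 were lower together in tKO 2 (the values stand with DAZL), each gene was set beside the tested genes within 5 Mb of its centre. These neighbours numbered between 21 and 134. Their median log2 difference from the dKO mean lay between -0.05 and 0.09 for all 9 genes in both tKO libraries. RYBP, on chromosome 3, had 29 neighbours with medians of -0.05 in tKO 1 and 0.04 in tKO 2. The neighbours of AUTS2 had a median of 0.05 in tKO 2, where AUTS2 itself was 0.45 above the dKO mean. Those of MGA had a median of 0.05 in tKO 1, where MGA was 0.31 below it. The values of the tKO libraries that stood apart were not shared by the median of the surrounding genes. A median within 5 Mb does not show a change confined to a few genes, and the cause was not tested.

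**Figure D3:**
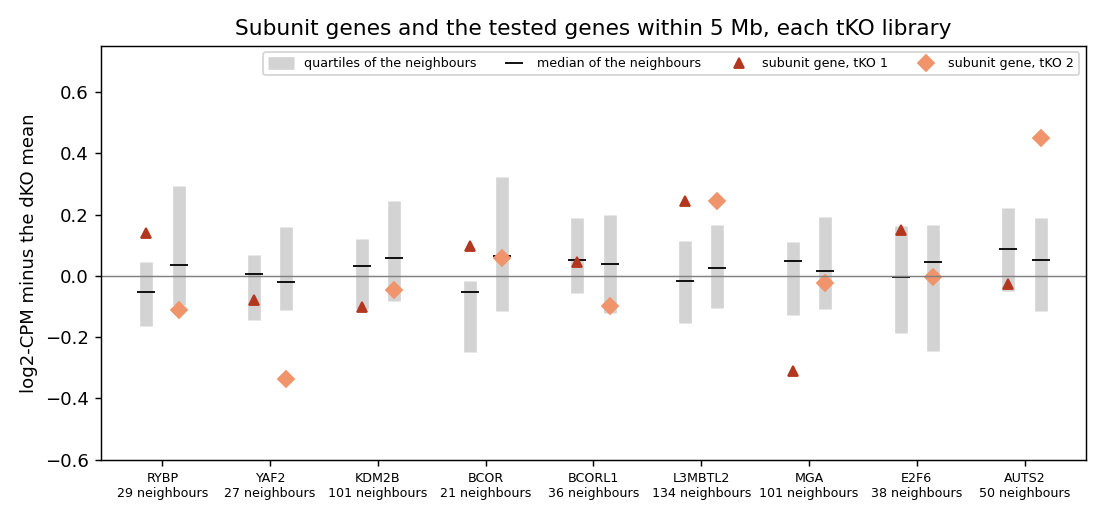
Log2-CPM minus the dKO mean for each subunit gene in tKO 1 (triangles) and tKO 2 (diamonds), beside the median (black bar) and quartiles (grey) of the tested genes within 5 Mb, whose number is given under each symbol. The neighbour medians stay between -0.05 and 0.09, and AUTS2 in tKO 2 lies well above its 50 neighbours' quartiles.

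Levels were compared between genes as CPM per kb of the canonical transcript over all 4 libraries. BCOR was highest, at 42.6 ± 2.74 (SD, n = 4), without overlap with the next gene. KDM2B (24.5 ± 1.118), BCORL1 (21.3 ± 2.28), L3MBTL2 (20.1 ± 2.41), MGA (17.6 ± 1.75), AUTS2 (13.9 ± 2.45) and RYBP (11.7 ± 0.894; SD, n = 4 each) followed, and the libraries of each overlapped those of the next. E2F6, at 8.86 ± 0.503 (SD, n = 4), and YAF2, at 6.19 ± 0.675 (SD, n = 4), were below these without overlap. The highest and lowest gene were 6.88-fold apart. With merged exons BCOR and YAF2 stayed first and last, 12.6-fold apart. KDM2B then ranked 6 and AUTS2 ranked 8 of 9, so that the order between them depends on the length used.

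Of 19 partner genes of the 3 complexes 18 were tested, and 0 were DE or had an unadjusted p-value below 0.05 in limma. Their log2 fold changes lay between -0.29 and 0.25, 12 above and 6 below 0, with a median of 0.06. In 5 of the 18 the tKO libraries were above both dKO libraries, as in 2387 of 15136 tested genes, and in 0 of the 18 below both, as in 2405 of 15136. In PRC1.1, PCGF1, the RING partner protein of this complex, had 10.4 and 8.99 CPM in dKO and 10.6 and 12.4 CPM in tKO, a log2 fold change of 0.25. USP7, a deubiquitinase found in PRC1.1, had a log2 fold change of 0.13 and SKP1, which joins KDM2B to the complex, of -0.04. USP7 was the most abundant of the 3 at 53.5 CPM per kb.

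In PRC1.6, CBX3, a heterochromatin protein, was the most abundant partner at 215 CPM per kb, and TFDP2 the least at 4.23. TFDP2, which pairs with E2F6, had 41.7 and 49.4 CPM in dKO, 46.8 CPM in tKO 1 and 29.5 CPM in tKO 2. Its log2 fold change of -0.29 ± 0.22 (SE; limma adjusted p = 0.996) came from tKO 2, while tKO 1 lay within the dKO values. TFDP1, the other partner of E2F6, was 94.2 CPM per kb. WDR5, an adaptor shared with other chromatin complexes, had 128 and 103 CPM in dKO and 131 and 135 CPM in tKO (log2 fold change 0.22, limma adjusted p = 0.996). MAX, the partner of MGA, had a log2 fold change of 0.05, and PCGF6 of 0.12.

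In PRC1.3 and PRC1.5, the gene with the smallest p-value above 0 was FBRS (log2 fold change 0.13) and below 0 PCGF5 (-0.17). PCGF5 had 94.3 and 97.6 CPM in dKO, 101 CPM in tKO 1 and 72.4 CPM in tKO 2. CSNK2A2, a catalytic subunit of casein kinase 2, was the most abundant tested partner at 70.6 CPM per kb. CSNK2B, the regulatory subunit, was listed at 0 counts in all libraries. A readthrough gene overlaps it on the same strand, and its level was not read from these files.

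**Figure D4:**
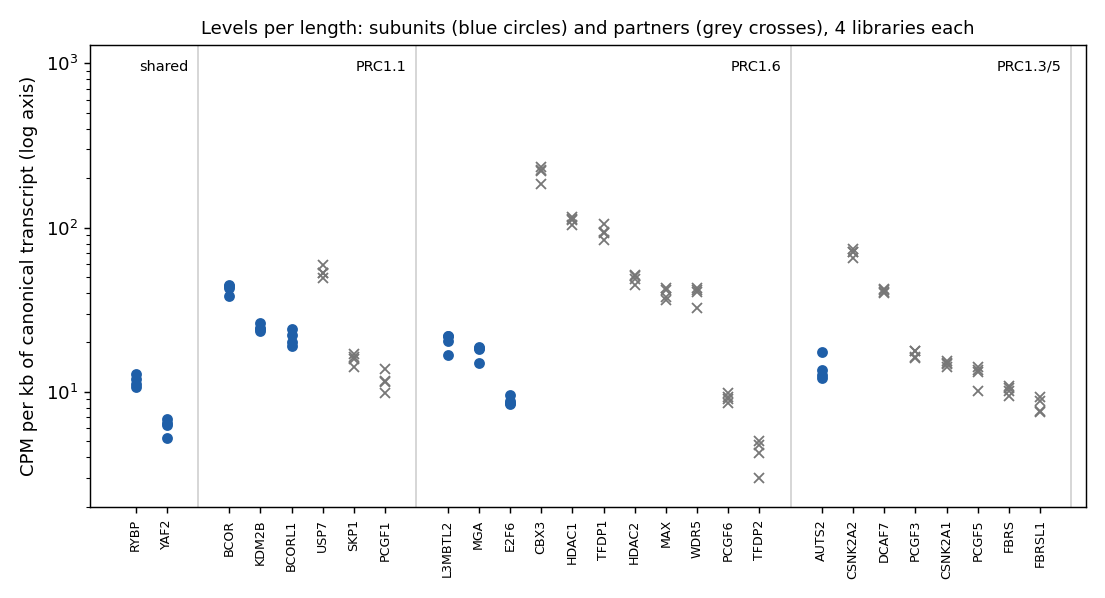
CPM per kb of canonical transcript (log axis) in each of the 4 libraries for the subunit genes (blue circles) and the 18 tested partner genes (grey crosses), grouped by complex. BCOR is the highest subunit gene, and in PRC1.6 partners such as CBX3 (215), HDAC1 (111) and TFDP1 (94.2) exceed the 3 subunit genes.

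Genes related to the subunits but outside variant PRC1 were also examined. Of 11 paralogs (KDM2A, 3 L3MBTL genes and 7 E2F genes) 9 were tested and 0 were DE or had an unadjusted p-value below 0.05 in limma, with log2 fold changes between -0.15 (E2F5) and 0.18 (E2F4). L3MBTL4 had 0 counts in all libraries and L3MBTL1 had at most 7, so that of this family L3MBTL2 and L3MBTL3 passed the filter. E2F6, at 8.86 CPM per kb, was lower than each of the other 7 E2F genes, of which E2F4, at 43.1, was highest. Of 8 genes of the MAX network, which includes MYC and other transcription factors that pair with MAX, and MLX, a relative of MAX, 8 were tested and 0 were DE or had an unadjusted p-value below 0.05 in limma. Their log2 fold changes lay between -0.25 and 0.14. The gene with the smallest p-value above 0 was MLX (log2 fold change 0.14) and below 0 MXI1 (-0.21). MYC was far more abundant than MGA, at 215 against 17.6 CPM per kb.

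PRC1.6 is known for silencing germline genes, and 13 that are known as its targets were listed. Motifs of its DNA-binding subunits were searched in the promoters of these genes. Since the genes were picked as known targets, their motif counts are no independent test of a link to PRC1.6. The E-box CACGTG, read alike on both strands, and the E2F core TCCCGC, or GCGGGA on the other strand, were counted in RefSeq promoters, from 250 bases before to 50 after the start. The motifs can overlap by 1 base. Of 12 germline genes with a promoter entry (HORMAD1 had none), 5 held an E-box in at least 1 promoter, against 8.77% of all 27305 genes, and 8 held an E2F core, against 30.4%. Both motifs stood in 4 of the 12, against 3.74%. Of the 9 subunit genes, 2 held an E-box (YAF2 and BCOR), 4 an E2F core (E2F6, AUTS2, L3MBTL2 and BCORL1), and 0 both. A gene with more promoters has more places for a match. Per promoter, an E-box stood in 12.5% of 16 subunit, 33.3% of 18 germline and 7.26% of all promoters. The same E-box of the germline gene STAG3 lay in overlapping promoters and was counted in each. An E2F core stood in 25%, 55.6% and 26.9% of them. The median number of CpG dinucleotides per promoter was 27.5 for the germline genes and 28.5 for the subunit genes, against a median of 14 for all promoters, and its part in the motif counts was not tested.

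Windows of 30 bases around such matches are shown for 4 germline genes and for the subunit genes YAF2 and L3MBTL2, so that the motifs can be read in place. Each is given 5′ to 3′ on the strand of its gene, with the motif in capitals and with its GRCh37 position, which was found by matching the RefSeq promoter (from GRCh38.p14) to GRCh37.
DAZL E-box, chr3:16646434-16646463, minus strand: tgcctcgccggcCACGTGcaagggccacgg
DAZL E2F core, chr3:16646493-16646522, minus strand: agagaggcaggcGCGGGAcgccaagggcgg
STK31 E-box, chr7:23749759-23749788, plus strand: ggccgtggctgcCACGTGactcccgctaac
SLC25A31 E-box, chr4:128651449-128651478, plus strand: gcatccaggagcCACGTGtcaggagtcacg
SMC1B E2F core, chr22:45809488-45809517, minus strand: tggcgaatccctTCCCGCgctttttccgcg
YAF2 E-box, chr12:42632164-42632193, minus strand: gccggcgagggtCACGTGcgcccaggcagg
L3MBTL2 E2F core, chr22:41601202-41601231, plus strand: agggagagaatgGCGGGAgcaggcacggaa
In STK31 an E2F core follows the E-box within the same window, and SLC25A31 holds 4 E-boxes in its promoter, of which the first is shown.

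Most germline genes were at or near 0 counts in both genotypes. Of the 13 genes 8 did not pass the filter and had at most 10 counts in a library, and SMC1B had 0 counts in all 4 libraries (each count of 0 allows up to 0.163 to 0.187 CPM). STK31 had 0, 0, 0 and 3 counts and SLC25A31 2, 0, 0 and 0 in the order dKO 1, dKO 2, tKO 1 and tKO 2. Of the 5 tested genes 0 were DE or had an unadjusted p-value below 0.05 in limma. TDRKH, a Tudor domain protein of the piRNA pathway, was the most abundant, with 22.0 and 24.3 CPM in dKO and 26.4 and 26.7 CPM in tKO. Its log2 fold change was 0.20 ± 0.14 (SE; limma adjusted p = 0.996). STAG3, a meiotic cohesin subunit, had 49 and 63 counts in dKO and 47 and 50 in tKO. DAZL, an RNA-binding protein of germ cells, had 24 and 32 counts in dKO, 26 in tKO 1 and 11 in tKO 2, a log2 fold change of -0.48 ± 0.45 (SE; limma adjusted p = 0.996). DAZL lies on chromosome 3 where the 51 tested genes within 5 Mb had a median of -0.87 in tKO 2 and 0.03 in tKO 1.

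**Figure D5:**
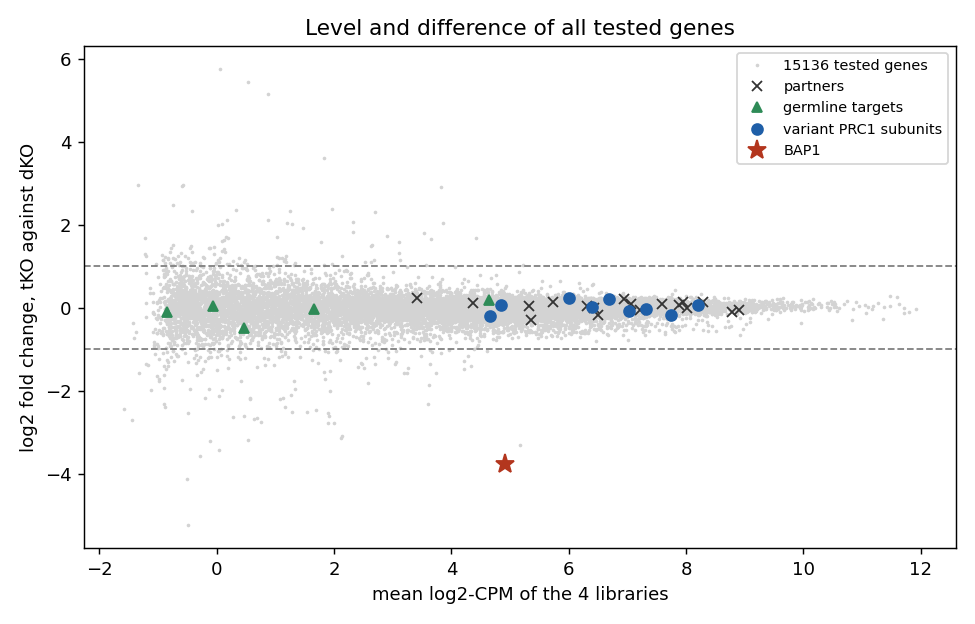
Log2 fold change of tKO against dKO over mean log2-CPM for 15136 tested genes (grey), with the 9 subunit genes (blue), their partners (crosses), 5 germline genes (green) and BAP1 (star) marked. The subunit genes lie between -0.21 and 0.24, while BAP1 lies at -3.77.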

How the data were processed

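RNA-seq libraries were prepared from polyadenylated RNA with a stranded kit. Per the study's methods and the labels, the authors trimmed reads with cutadapt (1.12) through Trim Galore (0.4.4), removed ribosomal reads with bowtie (1.2), and deposited raw read counts per gene from STAR (2.5.2b) on GRCh37. These counts were not normalised or pooled. The column for the strand opposite to the read was used; rows that name no gene (27.3% to 28.7% of reads) were left out. Symbols, positions and lengths came from GENCODE release 44 on GRCh37, matched by Ensembl identifier (97.5% of tested genes).

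Genes above 0.5 CPM in at least 2 libraries were fitted across all genes with limma (3.58.1) on log2-CPM (TMM in edgeR 4.0.16, prior count 2, mean-variance trend, genotype as the only term, R 4.3.3), and p-values were adjusted by Benjamini-Hochberg. Per the methods, libraries are independent biological replicates. The filter, TMM, linear model and thresholds follow the study; prior count and trend were set here. The fit was tested on simulated counts with planted changes, which it recovered only in part. The alternatives tried were DESeq2 (1.42.0), edgeR's quasi-likelihood test, limma-voom, other scalings, filters, prior count and strand, a replicate block, and leaving out each library. Merged exon lengths were an alternative chosen after seeing the data.

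The subunits and gene lists were chosen with earlier results of these data known. Named were the 9 subunits, the targeted genes, the lists' genes with the smallest p-value each way or the highest or lowest level, and the nearest patterns to the subunit with the largest change; STK31, SLC25A31, SMC1B, STAG3, CSNK2B and others outside this rule were named after their values were seen. The results for 2 markers of the blood cell list are not reported here.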

Additional observations from a re-analysis of the deposited data

Results flagged for a closer look

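Reads on the strand opposite to the one counted were above 3 in every library for 4 subunit genes, in a column that no comparison used. They summed over the 4 libraries to 226 for KDM2B, 54 for MGA, 43 for BCORL1 and 37 for BCOR. For KDM2B they were 55, 66, 55 and 50 in dKO 1, dKO 2, tKO 1 and tKO 2, as raw counts. They made up 2.12% to 2.75% of the counts on either strand for KDM2B, and at most 0.50% for MGA, BCORL1 and BCOR. Over all genes this share was 4.01% to 4.24% per library, so all 4 genes lay below it. No control sample bears on these counts.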

How the results depend on the processing

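None of the 9 subunit genes was DE under any of the 15 alternatives. Under the 11 that kept all 4 libraries, all 99 log2 fold changes kept their direction, and the smallest adjusted p was 0.734 (no filter). These alternatives reuse the same libraries, and limma without a trend and the replicate block cannot change a log2 fold change in this design. Same-numbered libraries did not deviate together (correlation 0.0581 over tested genes); the replicate block gave 13 DE genes against 2, and 0 of the 9. The number of DE genes was 25 with DESeq2, 1 with the edgeR quasi-likelihood test, limma without a trend, CPM above 5 and unstranded counts, and 0 with no filter; the cause was not tested. Leaving out 1 library, with the lone library of that group assumed to vary like the other group, gave 0 to 480 DE genes. The spread in such a fit comes from 1 group alone, so the subunit genes are given by log2 fold change only. The log2 fold changes then ran from -0.11 to 0.14 for RYBP, -0.024 to 0.18 for BCOR, -0.20 to 0.14 for BCORL1, -0.0049 to 0.15 for E2F6 and -0.025 to 0.45 for AUTS2, whose directions turned. The other 4 kept theirs, at 0.10 to 0.38 for L3MBTL2, -0.34 to -0.08 for YAF2, -0.31 to -0.02 for MGA and -0.13 to -0.02 for KDM2B. With merged exons the mean shares were 19.1% for YAF2 (34.6% by canonical transcript), 40.2% for BCORL1 (33.3%), 46.9% for KDM2B (61.7%) and 26.3% for AUTS2 (42.7%). Unstranded counts gave 56.7% for KDM2B. With 2 libraries per group, the 95% intervals of the 9 genes were 0.23 to 0.40 log2 units on either side.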
